A study of Astyanax mexicanus with 18 samples.

Results

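The liver of fasted Pachón cavefish was compared with the liver of fasted surface fish, with 3 libraries on each side. These 6 libraries are all of the starved ones among 12 liver RNA-seq libraries, in a series of 18 samples. Of 27420 genes listed, 11856 reached a TPM (a length-scaled relative transcript level) of at least 1 in 3 or more of the 6 libraries and were tested. Surface fish are the eyed, river-dwelling form of Astyanax mexicanus, and Pachón cavefish are a blind population of the same species from a cave. Fish of both groups were 4 months old, had been raised in the laboratory under one feeding scheme, and were dissected after 4 days without food that followed a single meal of 10 mg. The other 6 RNA-seq libraries came from fish of the same populations and age. These fish fasted for the same 4 days, then ate a meal of 10 mg, with dissection 3 hours after it. Their libraries show which starved differences were also present after a meal, and they enter the estimate of spread behind the starved p-values. The labels do not say whether each library came from 1 fish, so the p-values measure the spread between these samples, which may in part be technical.

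The liver carries much of a vertebrate through a fast. As insulin falls, hepatocytes break down glycogen, make glucose from amino acids and glycerol, draw on stored triglyceride, and oxidise fatty acids in mitochondria and peroxisomes, partly into ketone bodies that feed other tissues. FoxO and PPAR transcription factors, the circadian clock and the autophagy machinery all take part in this state. Surface fish live where food is present through much of the year, whereas Pachón cavefish live in the dark with little and irregular food.

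Starved Pachón livers had 777 genes with higher and 962 genes with lower levels than starved surface livers, which is 6.55% and 8.11% of the genes tested. A gene was called at a Benjamini-Hochberg adjusted p under 0.05 in limma, fitted to log2(TPM + 1) over all tested genes. At a difference of at least 2-fold, 588 genes (4.96%) were higher and 559 (4.71%) were lower, and at least 4-fold, 217 were higher and 130 were lower. The libraries of the 2 groups did not overlap for 771 of the 777 genes called higher, against 13.4% of all tested genes. They did not overlap for 950 of the 962 called lower, against 21.1%. Calls and overlap come from the same values, so these counts add no support to the calls. The same holds where a lack of overlap is described below for a single called gene. The highest and lowest genes named below were also chosen among genes whose groups do not overlap. Fold changes are log2 differences, Pachón minus surface, with the SE of the fit, and they understate the change of genes with low TPM. Levels are TPM per library, in the order of libraries 1, 2 and 3 of a group, or the mean ± SD of 3 libraries. A gene under 1 TPM in every library of 1 group was tested only through the other group, where it is high. Its call adds no support to the levels shown. Called genes of this kind include cdcp1a, kif1ab, accs, mt2 (ENSAMXG00000035436), acsl1a, hsd17b3, mb, rassf1, zgc:63972, CASP6, apoa4a (ENSAMXG00000039639) and gsk3aa. Genes with fewer than 3 libraries at 1 TPM or more in the low group also met the filter only with the other group. Their calls add no support either. Among them are hpdb, akr1b1 (ENSAMXG00000035685 and ENSAMXG00000007652), cbsb, slc2a10, dbpb, anpepb, ank1a and the 2 called HBE1 genes. On the lower side they include siae, glud1a, rorcb, hexa, onecut2 and cpb1.

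Over the 11856 tested genes, the median fold change on the log2 scale was -0.13, so small differences have to be read against it. Median-of-ratios scaling and quantile normalization moved this median to -0.03 and -0.02, and the share of called genes that were higher in Pachón cavefish from 44.7% to 55.4% and 55.7%. Among called genes, 468 of the 777 higher and 725 of the 962 lower ones carry a symbol, which is 60.2% and 75.4% against 79.2% of the genes tested. The deposited values give no read depth, and between 11028 and 12123 genes per starved library reached 1 TPM.

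**Figure D1:**
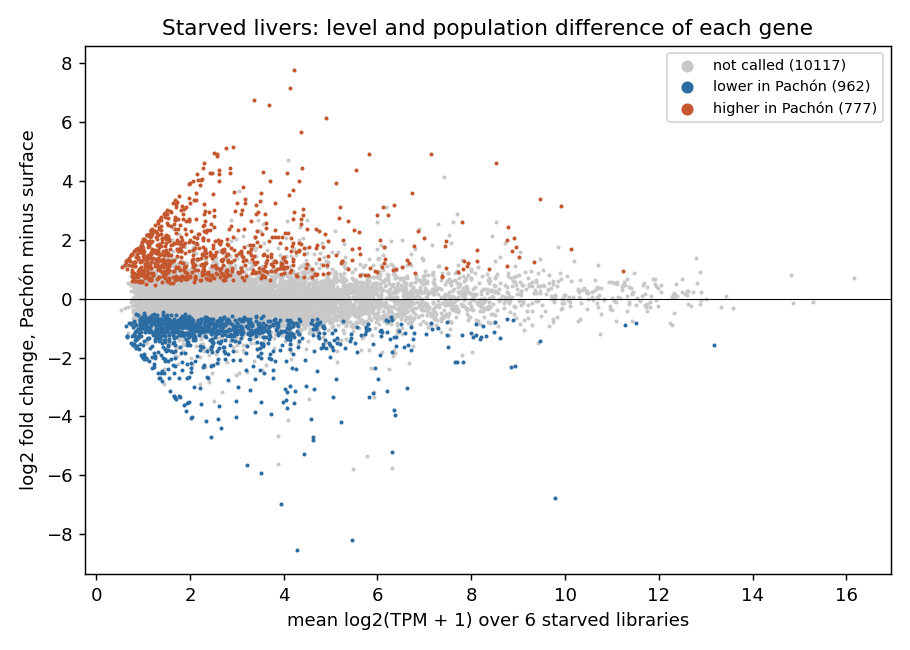
Each point is 1 of the 11856 genes tested, with its mean log2(TPM + 1) over the 6 starved libraries on the horizontal axis and its log2 fold change, Pachón minus surface, on the vertical axis. The 777 genes called higher in Pachón cavefish are orange, the 962 called lower are blue, and few of either lie among the most abundant genes.

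The libraries were liver in both groups. All 15 hepatocyte markers were above 0, and their summed level was 191200 to 233800 TPM in 5 of the 6 libraries, with 110900 TPM in surface library 2. The hepatic fatty acid binding protein fabp10a took 27975 to 138032 TPM and was not called (0.72 ± 0.47 on the log2 scale, limma adjusted p = 0.336). The apolipoprotein genes apoa2 (-0.10 ± 0.21, adjusted p = 0.794) and apoa1b (-0.14 ± 0.27, adjusted p = 0.773) were not called either.

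Surface library 2 stood apart from the rest in several genes. On the second principal component of the 6 libraries it lay at 47.2, but surface library 1 lay as far out on the other side, at -49.4. The other 4 lay between -12.2 and 9.85. Vitellogenin vtg3, an egg yolk precursor made in the liver under oestrogen, was at 4203 TPM in surface library 2 and at 0.4 to 18.4 TPM in the other 5. The oestrogen receptor gene esr1 was at 120.2 TPM there, 1.52 and 1.09 TPM in the other surface libraries and 1.87, 20.9 and 40.6 TPM in Pachón libraries. Neither gene was called between the populations (limma adjusted p = 0.177 for vtg3 and 0.777 for esr1). The labels give no sex for the fish, so a difference in sex cannot be told apart from others between libraries or groups. The secretory pathway gene ssr3 was high in surface library 2 at 714 TPM against 129.8 to 241 TPM, whereas the haem scavenger hpx was low at 3286 TPM against 9098 to 28996 TPM. A gene without a symbol (ENSAMXG00000038452) took 61446 TPM in it and 2.16 to 88 TPM in the others, and was not called (limma adjusted p = 0.103). Without this library 661 genes were called higher and 613 lower, so fewer genes were lower by over 1.5 times. Without Pachón library 3 the counts were 480 and 386, and without Pachón library 1 they were 561 and 543. Counts of gene groups are small and many change when 1 library is left out, so counts without single libraries are given beside them.

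**Figure D2:**
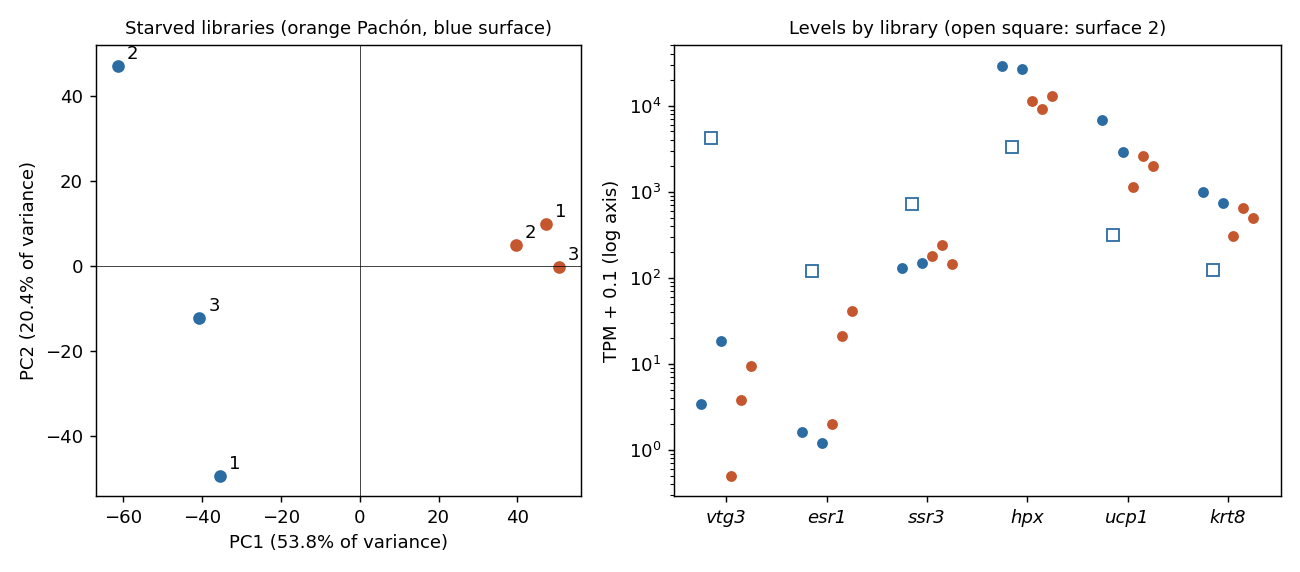
On the left, the 6 starved libraries are placed by their first and second principal components (53.8% and 20.4% of the variance). On the right, TPM + 0.1 of 6 genes is shown per library on a log axis, with surface library 2 as an open square. Surface library 2 is far above the others for vtg3 and above them for esr1 and ssr3. It is below them for hpx, ucp1 and krt8.

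The largest difference with a symbol at a mean of at least 5 TPM was in hpdb, a 4-hydroxyphenylpyruvate dioxygenase gene of tyrosine breakdown. It stood at 0, 0.12 and 1.74 TPM in surface fish against 92.5, 217 and 455 TPM in Pachón cavefish (log2 fold change 7.18 ± 0.54, limma adjusted p = 5.42e-06). No Pachón library came near a surface one. The gene met the filter only with the Pachón libraries, so its call adds no support to the levels. Its paralogue hpda is one of the more abundant liver transcripts, at 9631, 3955 and 8510 TPM in surface fish against 1849.9, 5728 and 4604 TPM in Pachón cavefish, and these groups overlapped (-0.91 ± 0.48, adjusted p = 0.228). In every library hpda remained the more abundant of the pair.

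Genes named mt2 encode metallothioneins, which bind zinc and copper. One gene named mt2 (ENSAMXG00000035436) was listed at 0 in all 3 surface libraries and at 168, 80.2 and 88.8 TPM in Pachón cavefish. A second gene of that name (ENSAMXG00000043108) was higher, at 194, 173 and 315 TPM in surface fish against 1869, 2479 and 2603 TPM in Pachón cavefish (3.38 ± 0.28, limma adjusted p = 1.44e-05). Both are marked as 1 of many copies, so reads may have been divided among near-identical genes, and their separate levels are uncertain.

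Several genes listed at a low or near-zero TPM in surface livers were moderately abundant in Pachón livers. The membrane protein gene cdcp1a was at 0.2, 0.08 and 0.05 TPM in surface fish against 35.3, 24.3 and 33.7 TPM in Pachón cavefish (4.84 ± 0.19, limma adjusted p = 1.03e-07), and nisch, which encodes nischarin, at 3.4, 3.71 and 3.33 TPM against 108, 81.7 and 102 TPM (4.44 ± 0.31, adjusted p = 4.06e-06). In both genes the libraries within a group were close together and the groups were far apart. The growth factor gene mdka (midkine) was at 4.16 ± 1.49 TPM in surface fish against 85.1 ± 38 TPM in Pachón cavefish (4.00 ± 0.50, adjusted p = 0.000331). The kinesin gene kif1ab (4.29 ± 0.35) and accs (3.99 ± 0.26) were, like cdcp1a, under 1 TPM in every surface library and at 11.08 TPM or more in every Pachón library. All of these except nisch and mdka were tested only through the Pachón libraries, so their calls add no support to the levels.

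On the lower side, miox, the oxygenase that breaks down myo-inositol, was at 434, 248 and 261 TPM in surface fish against 16.4, 34 and 16.6 TPM in Pachón cavefish (-3.79 ± 0.41, limma adjusted p = 0.000126). Every Pachón library was far below every surface library. The Ras association family gene rassf1 was at 26.8, 21.6 and 33.3 TPM against 0.13, 0.02 and 0.04 TPM (-4.71 ± 0.55, adjusted p = 0.0002), and zgc:63972 at 16, 8.87 and 12.8 TPM against 0.24, 0.14 and 0.14 TPM (-3.50 ± 0.20, adjusted p = 6.53e-07). Both were tested only through the surface libraries, so their calls add no support to the levels. The caspase gene CASP6 (-3.54 ± 0.65, adjusted p = 0.00429) and the cochaperone gene dnajb1a (26.7 ± 9.35 against 1.39 ± 0.297 TPM, -3.48 ± 0.48, adjusted p = 0.000735) were also among the 15 lowest. The sialic acid esterase gene siae was called lower as well (136, 89.8 and 1.63 against 0.91, 1.15 and 0.88 TPM), but surface library 3 was near the Pachón level and the call ended under 8 of 17 alternative settings.

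Some gene families held members that differed in opposite directions. Of 4 tested genes named akr1b1, for aldose reductase, one (ENSAMXG00000034098) was at 69.2, 54.5 and 57 TPM in surface fish against 4.06, 3.46 and 3.43 TPM in Pachón cavefish (-3.71 ± 0.35, limma adjusted p = 3.91e-05), while another (ENSAMXG00000035685) was at 1.04, 0.06 and 0.06 TPM against 13.5, 10.3 and 14.3 TPM (3.36 ± 0.29, adjusted p = 2.06e-05). The next (ENSAMXG00000007652) was higher by 1.62 ± 0.38 (adjusted p = 0.0174), a call that ended under 3 alternative settings, and the last was not called. Of the genes named cyp1a, for a cytochrome P450 that oxidises aromatic compounds, one (ENSAMXG00000020784) was higher, at 2.6 ± 1.95 against 55.7 ± 26.1 TPM (4.00 ± 0.50, adjusted p = 0.000346), and the other (ENSAMXG00000031551) was lower, at 218 ± 148 against 57.2 ± 9.28 TPM (-1.73 ± 0.44, adjusted p = 0.0231). The call of the lower cyp1a gene ended under 4 of 18 alternative settings. Of 4 tested genes named apoa4a, for an apolipoprotein, ENSAMXG00000039639 was at 15.4, 37.6 and 455 TPM in surface fish against 0.41, 0.33 and 0.22 TPM in Pachón cavefish (-5.65 ± 0.96, adjusted p = 0.00279), and the other 3 were not called. The signal sequence receptor gene ssr2 (ENSAMXG00000036600) was at 26.3, 187 and 28.4 TPM against 6.44, 2.9 and 2.5 TPM (-3.51 ± 0.68, adjusted p = 0.00599), while a second ssr2 gene overlapped between the groups (0.15 ± 0.70, adjusted p = 0.91). All of these are marked as 1 of many copies, so their levels carry the same uncertainty as mt2.

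Amino acid breakdown genes were called in both directions. Of 73 tested members, 9 were higher (12.3%, against 6.55% of all tested genes) and 5 were lower (6.85%, against 8.11%), and the median log2 fold change of 0.47 stood above the -0.13 of all tested genes. Histidine ammonia lyase hal, which opens histidine breakdown, was at 346, 355 and 264 TPM in surface fish against 688, 869 and 1026 TPM in Pachón cavefish (1.41 ± 0.22, limma adjusted p = 0.00174). Both genes for cystathionine beta-synthase, which draws homocysteine into cysteine, were higher: cbsa had 819, 84.5 and 479 TPM against 2169.9, 3559 and 3120.1 TPM (3.16 ± 0.66, adjusted p = 0.00873), and cbsb had 5.77, 1.53 and 0.63 TPM against 18.1, 30.2 and 23.5 TPM (3.01 ± 0.58, adjusted p = 0.00599). No library overlapped between groups for either gene, and the surface libraries spread most widely for cbsa. The methionine adenosyltransferase gene mat1a, which acts earlier in methionine metabolism, was at 238 ± 64.2 against 468 ± 10.9 TPM (1.00 ± 0.25, adjusted p = 0.0207), a call that ended under 4 of 18 alternative settings.

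Agmatinase, named for the hydrolysis of the arginine product agmatine, was not on that list but was among the 15 highest genes. Its gene agmat had 32.4, 5.71 and 3.73 TPM in surface fish against 192, 201 and 238 TPM in Pachón cavefish (4.37 ± 0.59, limma adjusted p = 0.000586), so the Pachón libraries were close to each other and all above the surface ones. In refed fish the difference was 1.81 ± 0.59 (adjusted p = 0.0642).

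On the lower side of amino acid breakdown were sdsl, a serine dehydratase-like gene (19.3 ± 5.12 against 5.76 ± 0.838 TPM, -1.57 ± 0.24, limma adjusted p = 0.00148), and afmid, of tryptophan breakdown (55.2 ± 14.2 against 19.9 ± 1.9 TPM, -1.40 ± 0.25, adjusted p = 0.004). Glutamate dehydrogenase glud1a, which releases ammonia from glutamate, was at 86.9, 191 and 144 TPM in surface fish against 0.03, 36.8 and 0.07 TPM in Pachón cavefish (-5.28 ± 1.51, adjusted p = 0.0385). Only Pachón library 2 held an appreciable level, and the call ended under 7 of 18 alternative settings, which included leaving out any 1 library but Pachón library 2, with adjusted p up to 0.141. The second gene glud1b was at 908, 211 and 718 TPM against 669, 731 and 788 TPM and was not called (adjusted p = 0.514). Leaving out 1 library gave 5 (without Pachón library 3) to 13 (without surface library 2) members higher and 2 (without Pachón library 1 or 3) to 5 lower.

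**Figure D3:**
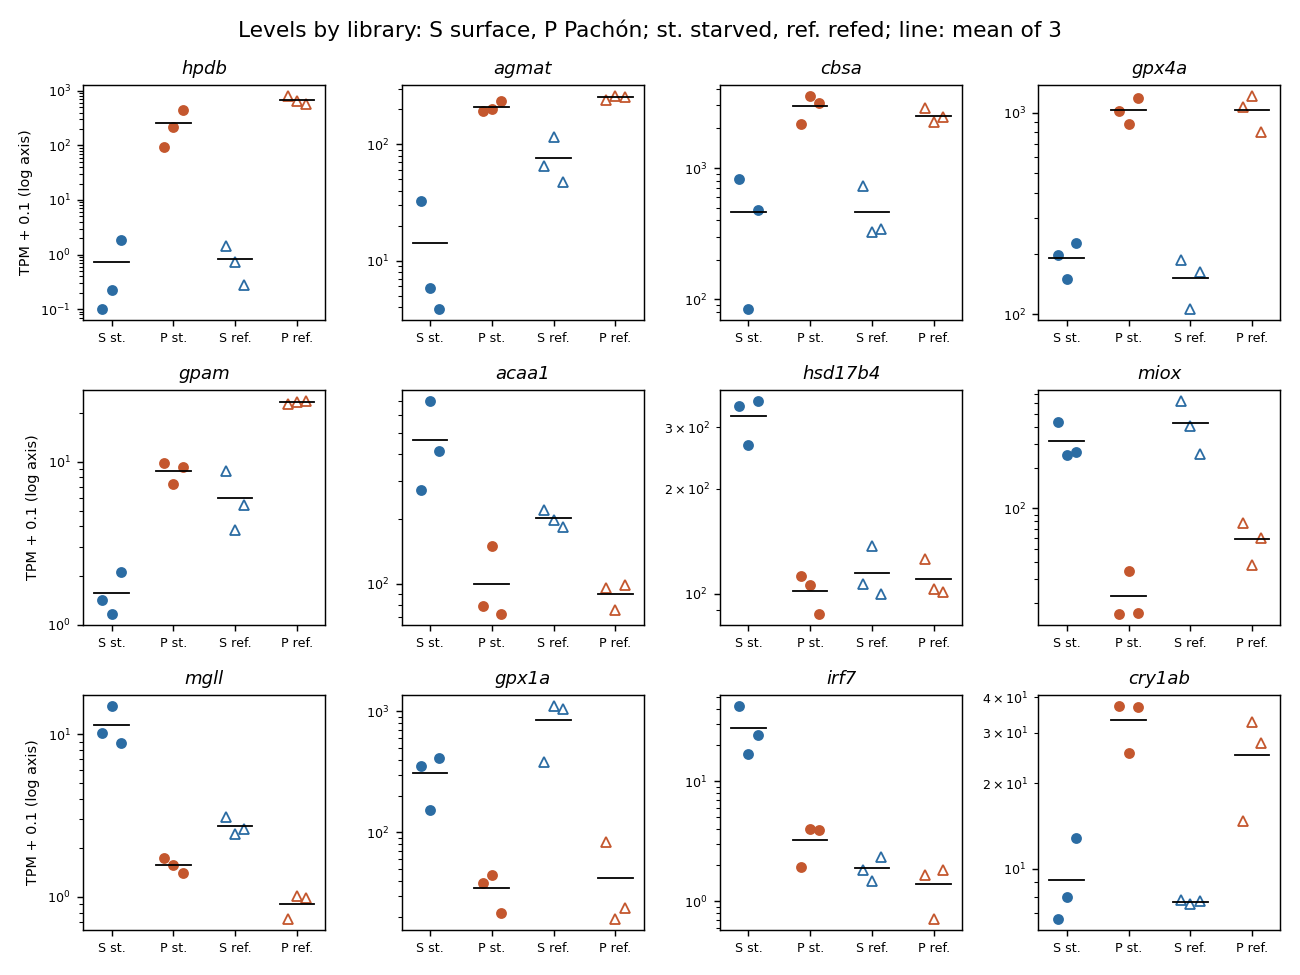
TPM + 0.1 on a log axis for 12 genes, with 1 point per library (filled circles starved, open triangles refed, blue surface, orange Pachón) and a line at the mean of 3. In the starved libraries the 2 populations do not overlap for any of the 12 genes; the surface and Pachón points of hsd17b4 and irf7 come together in refed fish.

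Genes of fatty acid oxidation and ketogenesis were called lower more often than higher in starved Pachón livers. Of 48 tested members, 10 were lower (20.8%, against 8.11% of all tested genes) and 1 was higher (2.08%, against 6.55%). The median was -0.42. The peroxisomal enzyme gene hsd17b4, which acts in the middle steps of beta-oxidation there, was at 345, 266 and 358 TPM in surface fish against 112, 106 and 87.3 TPM in Pachón cavefish (-1.65 ± 0.22, limma adjusted p = 0.000547). The peroxisomal thiolase acaa1, which performs the last step, was at 271, 702 and 412 TPM against 78.5, 149.8 and 72.3 TPM (-2.16 ± 0.36, adjusted p = 0.00233). For both genes the lowest surface library lay well above the highest Pachón library.

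The fatty acid transporter and very long chain acyl-CoA synthetase gene slc27a2a was lower too, at 108 ± 13.9 against 48.9 ± 6.06 TPM (-1.13 ± 0.22, limma adjusted p = 0.00576). Of mitochondrial genes, the carnitine palmitoyltransferase gene cpt1ab, which admits fatty acids to the mitochondrion, was at 35.7, 17.1 and 24.9 TPM against 11.6, 4.33 and 2.99 TPM (-2.0 ± 0.57, adjusted p = 0.0368), a call that ended under 7 of 18 alternative settings. Its paralogue cpt1aa overlapped between the groups at 14.4, 62.5 and 13.7 against 35.6, 16.2 and 19 TPM (-0.06 ± 0.52, adjusted p = 0.95). The 1 member called higher was the acyl-CoA synthetase gene acsl1a, at 0.31 ± 0.0872 TPM in surface fish against 4.46 ± 0.635 TPM in Pachón cavefish. Of the 10 lower calls, 4 stood under all alternative settings, and leaving out 1 library gave 4 (without Pachón library 3) to 11 (without Pachón library 1), with 5 without surface library 2 or Pachón library 2. The PPAR alpha genes pparaa (-0.47 ± 0.62, adjusted p = 0.646) and pparab (0.22 ± 0.46, adjusted p = 0.784) and the fasting kinase gene pdk4 (0.18 ± 0.53, adjusted p = 0.853) were not called.

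Few triglyceride genes were called, and in both directions. The mitochondrial glycerol-3-phosphate acyltransferase gene gpam, at the first step of glycerolipid synthesis, was at 1.31, 1.06 and 2.01 TPM in surface fish against 9.75, 7.14 and 9.2 TPM in Pachón cavefish (1.99 ± 0.26, limma adjusted p = 0.000484). The gene dgat1b, for the acyltransferase at the last step, was at 1.24, 2.24 and 1.42 TPM against 6.3, 5.23 and 5.17 TPM (1.33 ± 0.19, adjusted p = 0.00104). In both, all Pachón libraries were above all surface libraries. Conversely mgll, the lipase that finishes triglyceride breakdown, was at 10.1, 14.8 and 8.73 TPM in surface fish against 1.63, 1.46 and 1.31 TPM in Pachón cavefish (-2.28 ± 0.19, adjusted p = 1.57e-05). The droplet protein gene cidec was lower as well (-1.44 ± 0.25, adjusted p = 0.00286). These 4 are all the calls among 23 tested members of the triglyceride and lipid droplet list, and all 4 stood under every alternative setting. They make 8.7% in each direction, near the 6.55% higher and 8.11% lower of all tested genes.

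Counts of called fatty acid synthesis genes were small in the fasted state and not far from the shares over all tested genes. Of 29 tested members, 1 was higher (3.45%, against 6.55% of all tested genes) and 1 was lower (3.45%, against 8.11%). The median was -0.45. The lower count was 4 without surface library 1, 2 without Pachón library 2, 0 without Pachón library 3 and 5 with library weights. The acetyl-CoA synthetase gene acss2 was at 9.87 ± 1.67 TPM in surface fish against 25 ± 4.5 TPM in Pachón cavefish (1.26 ± 0.21, limma adjusted p = 0.00282). The acetyl-CoA carboxylase gene acacb, whose product restrains mitochondrial oxidation in mammals, was at 9.07, 13.2 and 11.8 against 6.6, 4.58 and 4.2 TPM (-1.02 ± 0.23, adjusted p = 0.0136), with no overlap, and its call ended without Pachón library 3 (adjusted p = 0.0624). Fatty acid synthase fasn was low in all 6 fasted libraries, at 0.88, 0.79 and 0.95 against 1.41, 8.33 and 4.15 TPM, and was not called (1.38 ± 0.79, adjusted p = 0.272). The desaturase gene scd was at 3.89, 29.9 and 30.2 against 0.36, 19.8 and 2.74 TPM and was not called either (adjusted p = 0.274).

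The lipogenic regulator PPARG was at 19, 9.27 and 12.7 TPM in surface fish against 29.2, 45.3 and 73.5 TPM in Pachón cavefish (1.74 ± 0.35, limma adjusted p = 0.00709). Of 25 tested genes on the list of its adipogenic targets, 2 were higher (PPARG itself and acsl1a) and 2 were lower (cidec and fabp11a). This is 8.0% in each direction, near the 6.55% higher and 8.11% lower of all tested genes. The median was -0.01 and turned to 0.10 under median-of-ratios scaling. The fatty acid binding protein gene fabp11a was at 275, 1410.4 and 278 against 193, 90.1 and 66.7 TPM, highest in surface library 2, and its call ended under 6 of 18 alternative settings. With 1 library left out the counts were 1 to 3 lower members, with 1 without surface library 2 and without Pachón library 2 or 3.

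Counts of called genes of glucose metabolism were small in fasted fish and not far from the shares over all tested genes. Of 38 tested genes of gluconeogenesis and glycogen, 1 was higher (2.63%, against 6.55% of all tested genes) and 2 were lower (5.26%, against 8.11%). None of these 3 calls stood under every alternative setting. Without surface library 2 the list had 2 higher and 3 lower, and without Pachón library 3 it had 0 and 0. Without surface library 1 or 3 it had 1 higher and 0 lower. The glucose-6-phosphatase gene g6pca.2, which releases glucose to the blood, was at 2566, 2515 and 3261 TPM in surface fish against 2989, 4435 and 4146 TPM in Pachón cavefish (0.46 ± 0.36, limma adjusted p = 0.42). Phosphoenolpyruvate carboxykinase pck1 was higher in every Pachón library, at 66.4, 74.3 and 97.2 against 151, 1262 and 596 TPM, but the Pachón libraries spread widely and it was not called (2.62 ± 1.39, adjusted p = 0.235). The glycogen synthase gene gys2 was at 569, 339 and 385 against 162, 281 and 239 TPM (-0.92 ± 0.28, adjusted p = 0.0456), and that call ended under 9 of 18 alternative settings. Of 31 tested glycolysis and glucose transport genes, the transporter gene slc2a10 was higher (1.45 ± 0.707 against 9.17 ± 2.64 TPM, 2.06 ± 0.41, adjusted p = 0.00684) and the pyruvate kinase gene pklr was lower, the latter ending under 8 of 18 alternative settings. These calls make 3.23% of that list in each direction, against 6.55% higher and 8.11% lower of all tested genes. Leaving out 1 library gave 1 to 2 members of that list higher, with 2 without surface library 1 or 2, and 0 to 1 lower.

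In the insulin, FoxO and IGF axis, 2 of 46 tested genes were higher and 3 were lower, shares below those of all tested genes (6.55% and 8.11%). With 1 library left out the counts were 0 (without Pachón library 2 or 3 or surface library 3) to 2 higher and 1 (without Pachón library 3) to 4 lower, with 1 higher without surface library 2 or Pachón library 1. The glycogen synthase kinase gene gsk3aa was at 2.44 ± 0.427 TPM in surface fish against 0.323 ± 0.0666 TPM in Pachón cavefish (-1.37 ± 0.23, limma adjusted p = 0.00282). This was the 1 call of the 5 that stood under all alternative settings. The gene was tested only through the surface libraries, so neither its call nor its standing adds support to the levels. The IGF binding protein gene igfbp1a, which fasting raises in fish and mammals, was at 333, 49.8 and 42.3 TPM against 426, 624 and 610.5 TPM (2.6 ± 0.74, adjusted p = 0.0373). Surface library 1 lay near the Pachón level, and the call ended under 8 of 18 alternative settings, which included leaving out any 1 library but surface library 1, with adjusted p up to 0.115. Insulin receptor genes insra (0.23 ± 0.22, adjusted p = 0.533) and insrb (-0.52 ± 0.20, adjusted p = 0.104) and the substrate genes irs2a and irs2b (adjusted p = 0.402 and 0.917) were not called. The genes igf1 and fgf21 were listed at 0 in all 6 libraries.

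Among genes that respond to fasting stress and restrain mTOR, 4 of 32 tested were higher (12.5%, against 6.55% of all tested genes) and limma called 0 lower (8.11% of all), with 2 lower at an unadjusted p under 0.05. The gene depdc5, part of the complex that holds mTORC1 off when amino acids are scarce, was at 8.19, 2.47 and 4.6 TPM in surface fish against 20.8, 12.9 and 15.1 TPM in Pachón cavefish (1.59 ± 0.35, limma adjusted p = 0.0113); it was the 1 call here that stood under all alternative settings. The glutathione-degrading enzyme gene chac1, a target of amino acid stress, was at 19.9, 24.4 and 35.6 against 73.1, 464 and 425 TPM (3.19 ± 0.87, adjusted p = 0.0319), and the mTOR inhibitor gene ddit4 was at 455, 159 and 61.4 against 624, 713 and 840.1 TPM without passing the test (2.12 ± 0.71, adjusted p = 0.0673). In neither did the groups overlap, and the call of chac1 ended under 7 of 18 alternative settings. Among the 4 higher members was also the period gene per1a, a gene of the clock. Leaving out 1 library gave 1 (without Pachón library 3 or surface library 3) to 5 (without surface library 1) members higher, with 2 without surface library 2 or Pachón library 2.

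Of 60 tested autophagy and lysosome genes, 7 were higher (11.7%, against 6.55% of all tested genes) and 3 were lower (5.0%, below the 8.11% of all). The autophagy-starting kinase gene ulk2 was at 32.2, 34.9 and 30.1 TPM in surface fish against 78, 176 and 165 TPM in Pachón cavefish (1.99 ± 0.42, limma adjusted p = 0.00928). The lysosomal protease gene ctsz was at 42.4, 46.1 and 43.7 against 95.2, 106 and 145 TPM (1.35 ± 0.21, adjusted p = 0.00162). In contrast to these, hexa, for the alpha subunit of lysosomal hexosaminidase, was at 5.14, 6.05 and 6.88 against 1.28, 0.96 and 0.7 TPM (-1.83 ± 0.18, adjusted p = 5.26e-05). None of these 3 genes overlapped between groups. The initiation genes atg101 (1.03 ± 0.24, adjusted p = 0.0164) and atg13 (0.95 ± 0.24, adjusted p = 0.0211) were higher too, their calls ending under 2 and 4 of 18 alternative settings. The list had 2 members higher without Pachón library 1, 3 without surface library 2 and 4 without Pachón library 3, and 1 lower without Pachón library 3. Of 42 proteasome genes limma called 0, against 6.55% higher and 8.11% lower of all tested genes. At an unadjusted p under 0.05, 1 was lower.

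Of 35 tested clock genes, 7 were higher (against 6.55% of all tested genes) and 2 were lower (8.11% of all), with a median of -0.21. The repressor gene cry1ab was at 6.57, 7.9 and 12.7 TPM in surface fish against 37.2, 25.4 and 36.8 TPM in Pachón cavefish (1.79 ± 0.31, limma adjusted p = 0.00325). The output factor gene dbpb was at 3.9, 0.45 and 0.95 against 8.79, 12.8 and 12 TPM (2.33 ± 0.42, adjusted p = 0.00414), and ciarta, another repressor, at 7.48, 3.11 and 2.98 against 25.6, 13.6 and 14.4 TPM (1.81 ± 0.34, adjusted p = 0.00509). The groups did not overlap in any of the 3.

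The nuclear receptor gene nr1d1, a repressor of the clock's activating arm, was at 15.1, 10.2 and 10.5 TPM in surface fish against 27.6, 50.9 and 51.8 TPM in Pachón cavefish (1.75 ± 0.40, limma adjusted p = 0.0142), a call that ended only without Pachón library 3 (adjusted p = 0.0616). Its opponent at shared DNA sites, the receptor gene rorcb, was lower, at 3.75, 3.48 and 3.93 against 1.3, 0.8 and 0.48 TPM (-1.37 ± 0.25, adjusted p = 0.00387). Of the period genes, per1a was higher, at 9.15, 5.7 and 5.34 against 16.4, 19.1 and 24.2 TPM (1.45 ± 0.37, adjusted p = 0.024). Its call ended under 4 of 18 alternative settings. The genes per1b (0.84 ± 0.26, adjusted p = 0.0505) and per2 (-0.21 ± 0.18, adjusted p = 0.486) were not called. With 1 library left out the counts were 4 (without Pachón library 3) to 8 clock genes higher and 1 (without Pachón library 2 or 3) to 3 lower. The labels give no hour of dissection, so a difference in the hour of sampling cannot be told apart from one in clock gene level.

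Of 44 tested antioxidant genes, 5 were higher (11.4%, against 6.55% of all tested genes) and 7 were lower (15.9%, against 8.11%). Leaving out 1 library gave 4 to 5 higher and 3 (without Pachón library 3) to 7 lower, with 4 lower without Pachón library 1. Besides the mt2 genes, gpx4a, a glutathione peroxidase that repairs oxidised membrane lipids, was at 196, 149 and 226 TPM in surface fish against 1019, 881 and 1179.6 TPM in Pachón cavefish (2.44 ± 0.27, limma adjusted p = 0.00015). The peroxidase gene gpx1a, whose product acts on soluble peroxides, went the other way, at 357, 154 and 412 against 38.3, 44.5 and 21.7 TPM (-3.05 ± 0.60, adjusted p = 0.00669). Every Pachón library had more gpx4a than gpx1a in TPM, whereas every surface library had more gpx1a.

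Of 34 tested xenobiotic and steroid metabolism genes, 5 were lower (14.7%, against 8.11% of all tested genes) and 3 were higher (8.82%, against 6.55%), with a median of -0.42. Without surface library 1 the counts turned to 3 lower and 4 higher, and they were 3 and 3 without Pachón library 2 and 3 and 2 without Pachón library 3. The fish cytochrome P450 gene cyp2n13 was at 179 ± 52 TPM in surface fish against 59.07 ± 15.9 TPM in Pachón cavefish (-1.58 ± 0.31, limma adjusted p = 0.00595), and cyp4v7, of a family that hydroxylates fatty acids, was at 1067 ± 322 against 207 ± 12.8 TPM (-2.31 ± 0.48, adjusted p = 0.00929). The glutathione transferase gene gstt1a was at 467, 743 and 702 against 244, 250.3 and 241 TPM (-1.35 ± 0.24, adjusted p = 0.0033). A glutathione transferase of a fish class, gstr, was higher, at 539.7, 849.9 and 525 against 1633, 2703 and 1841 TPM (1.69 ± 0.37, adjusted p = 0.0113). None of these 4 genes overlapped between groups.

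Of 21 tested bile acid genes, limma called 4 lower (19.0%, against 8.11% of all tested genes) and 0 higher (6.55% of all), and at an unadjusted p under 0.05 the counts were 7 and 0. AKR1D1, the reductase that sets the bent ring of bile acids, was at 232, 149.7 and 94 TPM in surface fish against 39.9, 50.2 and 36 TPM in Pachón cavefish (-1.81 ± 0.34, limma adjusted p = 0.00486). Beside it cyp8b2 (512 ± 160.3 against 208 ± 54.5 TPM), cyp7b1 (9.32 ± 2.35 against 2.8 ± 1.4 TPM) and hsd3b7 (12.1 ± 2.71 against 6.11 ± 0.872 TPM) were lower, and their calls ended under 4, 5 and 7 of 18 alternative settings. The rate-limiting enzyme gene cyp7a1 was at 27.9, 0.42 and 11.8 against 7.61, 82.5 and 52.3 TPM, overlapped between groups and was not called (2.06 ± 1.15, adjusted p = 0.259). With 1 library left out the counts were 1 (without Pachón library 3) to 4 members lower, with 2 without Pachón library 2 or surface library 2 or 3.

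Of 28 tested cholesterol genes, limma called 1 higher (3.57%, against 6.55% of all tested genes) and 0 lower (against 8.11%). At an unadjusted p under 0.05 the counts were 3 and 1, and the median was -0.63. The higher count was 0 when any 1 library but surface library 1 was left out. The called gene was soat2, which esterifies cholesterol (63.9, 10.6 and 16.2 against 122, 195 and 347 TPM, 3.11 ± 0.88, limma adjusted p = 0.0361), and its call ended under 7 of 18 alternative settings. The synthesis gene hmgcrb (-0.51 ± 0.25, adjusted p = 0.198) and the LDL receptor gene ldlra (1.02 ± 0.84, adjusted p = 0.446) were not called.

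Genes that handle hormones and vitamins made 3 calls among 23 tested, 2 higher (8.7%, against 6.55% of all tested genes) and 1 lower (4.35%, against 8.11%). There were 4 higher without surface library 1 and 2 lower without Pachón library 1. The steroid dehydrogenase gene hsd17b3, which makes testosterone in mammals, was at 0.04, 0.05 and 0.23 TPM in surface fish against 14.7, 3.53 and 11.6 TPM in Pachón cavefish (3.13 ± 0.61, limma adjusted p = 0.00634). Plasma retinol binding protein rbp4, an abundant secreted product of the liver, was at 1964, 1516 and 1798 against 3878, 2805 and 3397 TPM (0.93 ± 0.20, adjusted p = 0.0096), and 1 of 18 alternative settings ended its call. The groups did not overlap in either of these genes.

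Of 51 tested liver transcription factors, 5 were lower (9.8%, near the 8.11% of all tested genes) and PPARG was the 1 higher (1.96%, against 6.55%). Leaving out 1 library gave 2 (without Pachón library 1) to 4 lower, with 3 without Pachón library 3 or surface library 2 or 3. The respiratory regulator nrf1 was at 21.8, 13.1 and 19.98 TPM in surface fish against 6.46, 7.47 and 6.03 TPM in Pachón cavefish (-1.31 ± 0.21, limma adjusted p = 0.0023), and the hepatocyte factor gene onecut2 at 2.88 ± 0.935 against 0.9 ± 0.118 TPM (-1.0 ± 0.21, adjusted p = 0.00866). The master hepatocyte factor gene hnf4a was at 64.4, 32.1 and 49 against 8.82, 30.8 and 17.8 TPM (-1.40 ± 0.42, adjusted p = 0.0445), where the lowest surface and the highest Pachón library nearly met and the call ended under 9 of 18 alternative settings. The cell cycle factor gene E2F3 was higher, at 18.5, 14.2 and 14.8 against 83.1, 103 and 125 TPM (2.63 ± 0.29, adjusted p = 0.000132). The 21 tested cell cycle genes held 1 other call, ccnd1, which was lower in a call that ended under 7 alternative settings. Each makes 4.76% of that list, against 6.55% higher and 8.11% lower of all tested genes.

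The interferon regulator gene irf7 was at 42.5, 16.8 and 24.4 TPM in surface fish against 1.82, 3.88 and 3.8 TPM in Pachón cavefish (-2.74 ± 0.34, limma adjusted p = 0.000336), with a wide gap between the groups. Of 28 tested genes of the immunoproteasome, MHC and interferon response, 1 was higher (3.57%, against 6.55% of all tested genes) and 2 were lower (7.14%, against 8.11%). Without Pachón library 3 the counts were 4 and 1, and without Pachón library 1 or 2 limma called 0 higher. Of 53 complement, coagulation and acute phase genes, the complement gene c3b.2 was the 1 called, at 389.5 ± 82.1 against 169.8 ± 25.8 TPM (-1.18 ± 0.29, adjusted p = 0.0194), and it ended under 4 of 18 alternative settings. On that list 1.89% were lower and 0 were higher, against 8.11% and 6.55% of all tested genes. Without surface library 1 it had 2 higher and 0 lower.

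Genes that build ribosomes had small fold changes, few of which were called. Of 71 tested ribosome biogenesis genes, 4 had a positive fold change, 5 were called lower by limma (7.04%, against 8.11% of all tested genes) and 0 higher, with 20 and 0 at an unadjusted p under 0.05 and a median of -0.44. The processome gene utp6 was at 5.89, 5.81 and 6.2 TPM in surface fish against 1.62, 2.83 and 3.43 TPM in Pachón cavefish (-0.98 ± 0.23, limma adjusted p = 0.0157), a call that 1 of 18 alternative settings ended. No call of this list stood under all of them. The lower count was 0 without Pachón library 1, 1 without Pachón library 2 or surface library 3, and 3 without surface library 2. Under median-of-ratios scaling and quantile normalization the list's median was -0.33 and -0.36. The 78 cytosolic ribosomal protein genes had a median of 0.22. Limma called 2 of them higher (2.56%, against 6.55% of all tested genes) and 0 lower (against 8.11%). At an unadjusted p under 0.05 the counts were 7 and 2. Leaving out 1 library gave 1 to 5 higher, with 5 without Pachón library 2, and 1 lower without surface library 1. The 80 genes of the respiratory chain had a median of -0.14. Of these, 4 were higher (5.0%, against 6.55% of all tested genes) and 1 was lower, a share below the 8.11% of all. None of those calls stood under all alternative settings: the counts were 4 and 6 without surface library 1, 1 and 0 without surface library 2, and 0 and 0 without Pachón library 3.

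**Figure D4:**
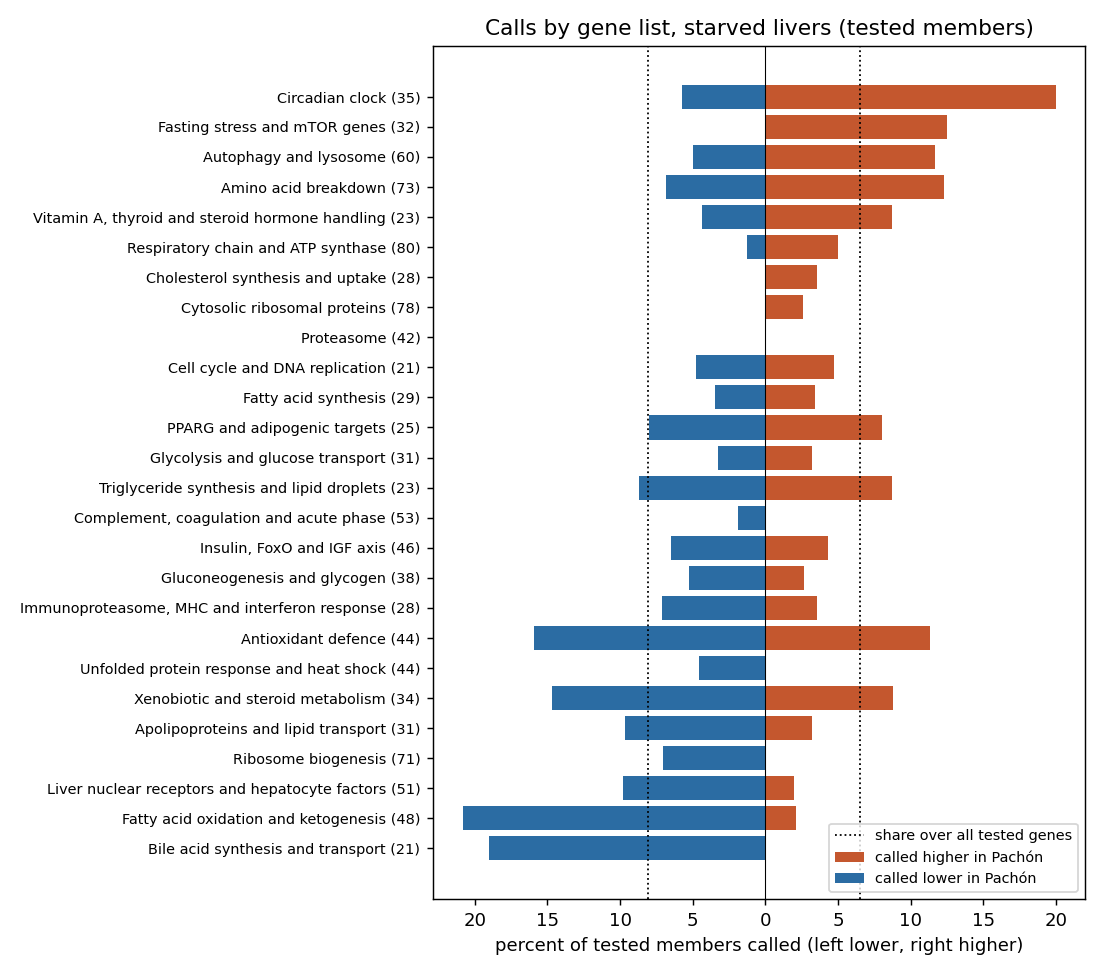
For each pathway list with at least 10 tested members (number in brackets), the bars give the percent of those members called lower (blue, left) and higher (orange, right) in starved Pachón livers, and the dotted lines mark 8.11% and 6.55% over all tested genes. With all 6 libraries, fatty acid oxidation (20.8%) and bile acid genes (19.0%) have the longest bars to the left, and clock genes (7 of 35) the longest to the right, an order that can change when 1 library is left out.

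Refed fish of the same populations showed how far these differences went with the fast. The refed libraries enter neither side of the starved comparison, but the fit gives both comparisons 1 shared estimate of spread. Of the 777 genes higher in starved Pachón livers, 747 (96.1%) had the same sign in refed fish and 470 (60.5%) were also called higher there, where 9.34% of all tested genes were. Of the 962 lower genes, 766 (79.6%) had the same sign and 257 (26.7%) were also called lower, where 3.42% of all tested genes were. The median log2 fold change of the higher genes was 1.47 in starved and 1.17 in refed fish, and that of the lower genes was -1.08 and -0.46. The starved values chose these genes, so some shrinkage in the second set of libraries goes with the choice. Over all tested genes the refed median was 0.19, against -0.13 in starved fish.

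The test of the difference itself, starved minus refed, called 8 of 11856 genes (0.0675%), with 1989 at an unadjusted p under 0.05. Most of the 8 were under 1 TPM in every library of 1 starved group. They were tested only through the other starved group, so their calls in this test support nothing. For hsd17b4 the difference between populations was -1.65 ± 0.22 in starved and -0.05 ± 0.22 in refed fish, and the contrast between the states was -1.60 ± 0.31 (limma adjusted p = 0.0865). For irf7 these values were -2.74 ± 0.34, -0.31 ± 0.34 and -2.43 ± 0.48 (adjusted p = 0.0991), and surface refed libraries had 1.79 ± 0.446 TPM. Neither gene passed the test of the difference between states. For dgat1b the estimated difference was 1.33 ± 0.19 in starved and 2.78 ± 0.19 in refed fish (contrast -1.44 ± 0.27, limma adjusted p = 0.0865). For fasn it was 1.38 ± 0.79 and 5.30 ± 0.79 (contrast -3.92 ± 1.12, adjusted p = 0.17). Both dgat1b and fasn also failed to pass the test of the difference between states. For cdcp1a (4.84 and 4.51), gpx4a (2.44 and 2.78) and the lower akr1b1 gene ENSAMXG00000034098 (-3.71 and -4.53) the difference was called in both feeding states.

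List medians are given side by side, without a test of their difference. The median of the fatty acid oxidation list was -0.42 in starved and -0.04 in refed fish, that of ribosome biogenesis was -0.44 and 0.56, and that of amino acid breakdown was 0.47 and 0.80. In refed fish 25 of the 73 amino acid breakdown genes were called higher, against 9 in starved fish. Over all tested genes the share called higher was also larger in refed fish, at 9.34% against 6.55%. Limma called 0 genes of any list in the test of the difference between feeding states. An unadjusted p under 0.05 there was held by 1989 of all 11856 tested genes. It was held by 46 of the 71 ribosome biogenesis genes and 25 of the 80 respiratory chain genes. For amino acid breakdown it was 14 of 73 genes, near the share over all tested genes. For fatty acid oxidation it was 5 of 48, below that share.

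**Figure D5:**
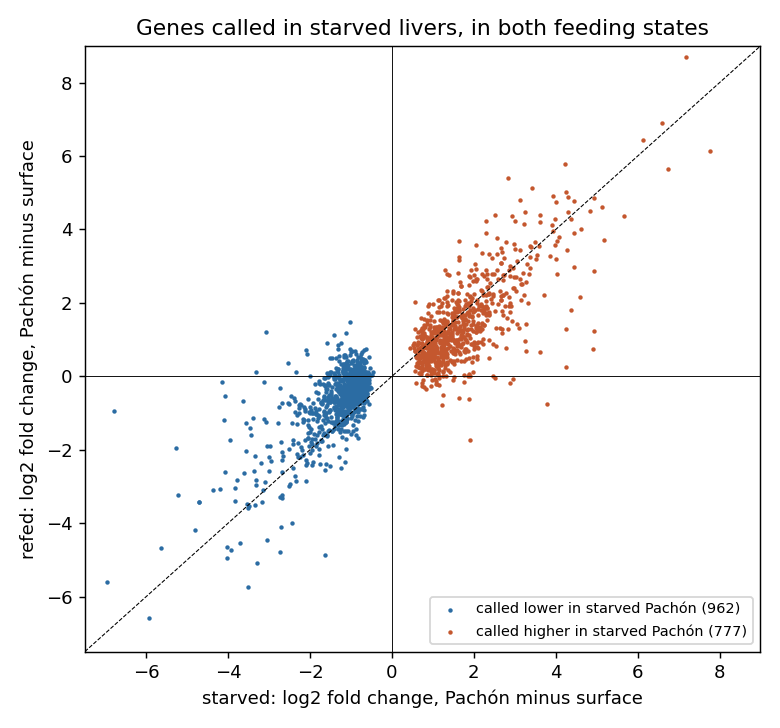
Log2 fold change, Pachón minus surface, in starved (horizontal) and refed fish (vertical) for the genes called higher (orange, 777) or lower (blue, 962) in starved livers, with the line of equal change dashed. Most orange points stay above 0 in refed fish, while the blue cloud lies closer to 0 on the vertical than on the horizontal axis.

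Markers of other cell types were low next to those of hepatocytes, and in bulk liver a lower share of a cell type cannot be told apart from less RNA per cell. The summed level of 18 macrophage markers was 58.7 to 119 TPM in surface fish and 141 to 461 TPM in Pachón cavefish, most of it from genes named MFAP4; timd4 and havcr1 were too low to be tested, and limma called 0 of 11 tested members (2 higher at an unadjusted p under 0.05). Of 23 skeletal muscle markers 16 were above 0 in at least 1 library, and their sum was 0.73 to 1.35 against 4.15 to 11.2 TPM, nearly all from the oxygen-binding myoglobin gene mb (0.417 ± 0.139 against 6.72 ± 3.16 TPM, 2.36 ± 0.28, limma adjusted p = 0.000206), while myl1, mylz3, tnnc2 and pvalb1 were at 0 in all 6. Of 21 intestinal markers 15 were above 0, with sums of 66.5 to 189 against 119 to 157 TPM, cdx1a and cdx1b at 0, and the aminopeptidase gene anpepb higher at 0, 0 and 2.74 against 34, 34.3 and 30.7 TPM (4.45 ± 0.45, adjusted p = 6.63e-05). Erythrocyte markers summed to 596 to 2837 against 1210 to 2803 TPM, adipocyte markers to 1962 to 7455 against 1546 to 2806 TPM, and exocrine pancreas markers to 33.6 to 48.2 against 14.4 to 48.9 TPM, all overlapping. Single markers of these types were called all the same. Of 13 tested erythrocyte markers limma called 0 lower (against 8.11% of all tested genes), with 0 lower at an unadjusted p under 0.05 and a median of 0.63. It called 3 higher (23.1%, against 6.55% of all tested genes). These were the membrane skeleton gene ank1a (1.26 ± 0.28, adjusted p = 0.0125) and 2 globin genes named HBE1. The globin gene ENSAMXG00000038014 was at 1.07, 0.74 and 0.61 against 7.11, 4.97 and 5.11 TPM, and ENSAMXG00000043907 was at 9.74, 0 and 0.2 against 17.9, 39.3 and 44.5 TPM. Both HBE1 calls ended under 7 alternative settings, and the list had 1 call without Pachón library 3. In refed fish these 2 globin genes had the opposite sign and were not called (-0.63 ± 0.56 and -0.76 ± 1.04). The most abundant HBE1 gene, ENSAMXG00000016437, was at 1273 ± 1012 against 1694 ± 730 TPM and was not called (limma adjusted p = 0.46). Neither was ENSAMXG00000037475 (adjusted p = 0.872). All are marked as 1 of many copies, so their separate levels are uncertain. Of 5 tested adipocyte markers 2 were lower (40.0%, against 8.11% of all tested genes), cidec and fabp11a, which the lists above also hold. In surface library 2 fabp11a made up 1410.4 of the 1962 TPM of adipocyte markers, and in surface library 1 it made up 275 of 7455 TPM. The pancreas marker cpb1 (1 of 8 tested) was lower in a call that ended under 15 alternative settings. The sum of 17 ovary and testis markers was 6.74 to 9.23 TPM in surface fish against 15.3, 48.1 and 60.2 TPM in Pachón cavefish, where the meiotic gene sycp1 made up 37.2 and 44.8 TPM in Pachón libraries 2 and 3 and 0 to 0.11 TPM elsewhere. Of the 2 tested ovary and testis markers limma called 1 higher (50.0%, against 6.55% of all tested genes). This was gsdf, at 1.24 ± 0.627 against 5.73 ± 2.3 TPM (1.56 ± 0.34, limma adjusted p = 0.0112), a call that ended without Pachón library 3. The part of the cell type markers in the gene groups above was not tested.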

How the data were processed

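The values analysed are TPM per gene and library, as deposited by the authors for all 12 RNA-seq libraries. Per the submitters' processing notes, the tools included STAR 2.6.1c, RSEM, bcl2fastq 2.18 and Bowtie2; what each did is not given in the sources used here, nor are genome build, annotation and strand setting. Stranded polyA libraries were sequenced from 1 end, per the labels' protocols. ChIP-seq libraries were not analysed here. TPM keep no read depth, so the depth, and any counting error, is unknown. A gene listed at or near 0 may be a failed estimate. Whether reads of the populations align equally well to the reference was not tested. TPM also depend on the most abundant genes, so other scalings were tried.

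Genes with at least 1 TPM in 3 of the 6 starved libraries were tested by limma 3.58.1 (R 4.3.3) on the log2(TPM + 1) scale. One mean per group was fitted for 4 groups and 12 libraries with no covariate, and eBayes moderated the variances with a trend on mean level (residual degrees of freedom 8, prior 3.48). Calls had a Benjamini-Hochberg adjusted p under 0.05 across the 11856 genes. The 3 contrasts were Pachón minus surface in starved fish, the same in refed fish, and their difference. The procedure was tested on simulated data. No 2 of the 15 pairs of starved libraries were identical.

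The members and gene lists were chosen with earlier results of these data known, so counts over lists are descriptions. Genes were named by a rule: the 15 highest and 15 lowest called genes with a symbol, groups that do not overlap and 1 group mean of 5 TPM or more; up to 4 called members of each list with the smallest p; the 20 most abundant genes; genes at 0 in 1 group and at least 5 TPM throughout the other; genes called in the difference between feeding states; and a set list of genes of metabolism and the clock. The text names part of these, picked after their values were seen. Named after their values were seen were hpda, cbsa, cbsb, mat1a, glud1b, gstr, afmid, hnf4a, atg13, vtg3, ssr3, ucp1, krt8, the cell type markers at the end of the report, the further copies of gene families, and the peroxisomal genes of the closing section. Symbols come from the deposited table. Results for a few genes are not reported here.

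Alternatives were pseudocounts of 0.1 and 0.5 TPM, no filter, a filter of 5 TPM, a filter over all 12 libraries, only the 6 starved libraries, median-of-ratios and quantile scaling, scaling without the 20 most abundant genes, library weights, no trend, a replicate block, and leaving out each starved library.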

Additional observations from a re-analysis of the deposited data

Results flagged for a closer look

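The gene triap1, which in mammals encodes an inhibitor of apoptosis, was lower in starved and higher in refed Pachón cavefish. It was at 9.27, 12.4 and 15.1 TPM in starved surface fish and 4.62, 6.12 and 4.34 TPM in starved Pachón cavefish (log2 fold change -1.13 ± 0.24, limma adjusted p = 0.00956). In refed fish it was at 12.9, 9.24 and 10.7 TPM against 32.6, 21.7 and 24.1 TPM (1.18 ± 0.24, adjusted p = 0.00782). The libraries did not overlap in either state, and the test of the difference between the states gave -2.3 ± 0.34 on the log2 scale (adjusted p = 0.0438). That last call ended at least with a filter of 5 TPM, with a replicate block and without starved Pachón library 1, settings under which limma called 0 genes in this test. With a pseudocount of 0.1 TPM, and without starved Pachón library 2 or 3, limma called 1 gene in it. Whether triap1 was that gene is not given here, so its call may have ended under more settings.

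The gene si:dkey-16n15.6 was listed at 0 in every surface library and in every refed Pachón library, and at 2.11, 1.24 and 1.28 TPM in starved Pachón cavefish. The difference between the states was 1.33 ± 0.2 on the log2(TPM + 1) scale, which is no fold change because the other groups are listed at 0. The gene passed the filter only through the starved Pachón libraries, where it is high, so its call in this test supports nothing.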

How the results depend on the processing

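No called gene reversed under the settings run, but small list medians did turn with scaling: under median-of-ratios scaling that of glycolysis was 0.06 instead of -0.04 and that of gluconeogenesis 0.12 instead of -0.01 (quantile: 0.05 and -0.04). Of 777 higher and 962 lower genes, 409 and 326 stood under all alternatives. With a filter of 5 TPM, which tests 6178 genes, 393 were higher and 482 lower, and 789 were called between refed populations. With only the 6 starved libraries, which leaves fewer degrees of freedom, 610 were higher and 576 lower. Leaving out 1 starved library gave 480 to 669 higher, 386 to 888 lower and 1340 to 1725 refed calls. The 8 genes called in the test of the difference between feeding states became 0 with a filter of 5 TPM and 1 with a pseudocount of 0.1 TPM. They became 13 with median-of-ratios scaling, 14 with quantile normalization, 22 with no filter and 41 with library weights. When 1 starved library was left out the count was 0 to 54 (0 without Pachón library 1, 1 without Pachón library 2 or 3, and 54 without surface library 1). The cause was not tested. A replicate block gave 648 higher and 672 lower genes, 1170 refed calls and 0 differences between states. Same-numbered starved libraries deviated together with r of -0.062, 0.05 and 0.108, so the numbers were not taken to pair the samples.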

Other observations

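Peroxisomal genes beyond the fatty acid oxidation list were looked at after the values of hsd17b4 and acaa1 had been seen, so the following counts describe a list assembled with its values known and support nothing. Of 62 tested genes of 68 listed, 12 were lower and 1 was higher in starved Pachón livers. The shares over all tested genes were 8.11% lower and 6.55% higher. A negative log2 fold change was held by 46 members, and the median was -0.37 in starved and -0.02 in refed fish. The sarcosine and pipecolate oxidase gene pipox was at 149, 114 and 138 TPM in surface fish and 50.3, 55.9 and 52 TPM in Pachón cavefish (-1.32 ± 0.22, limma adjusted p = 0.00229), with -1.32 ± 0.22 in refed fish. The membrane channel gene pxmp2 was at 57.2, 91.4 and 129 against 21.9, 32.5 and 20.4 TPM (-1.80 ± 0.32, adjusted p = 0.00336), and acbd5a, whose product ties peroxisomes to the endoplasmic reticulum in mammals, at 74, 56 and 36.3 against 12.5, 24.8 and 16.7 TPM (-1.56 ± 0.29, adjusted p = 0.00505). The 1 member called higher was the glycolate oxidase gene hao1, at 65.2 ± 25.6 against 163 ± 63.6 TPM (1.31 ± 0.32, adjusted p = 0.0183), a call that ended under 4 alternative settings. Without surface library 2 the counts were 11 lower and 1 higher, and without Pachón library 3 they were 9 and 1.

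In all, 10 genes were present in all libraries of 1 starved population at 5 TPM or more and listed at 0 in all of the other: 6 in Pachón cavefish, of which mt2 (ENSAMXG00000035436) has a symbol, and 4 in surface fish, of which 0 have one. Of the latter, ENSAMXG00000018103 was at 458, 221 and 514 TPM in starved surface fish and was also listed at 0 in all 3 refed Pachón libraries. The most abundant gene called lower also lacks a symbol: ENSAMXG00000039629 was at 21387, 11236 and 17079 TPM in surface fish and 4514, 5446 and 6259 TPM in Pachón cavefish (-1.58 ± 0.25, limma adjusted p = 0.00177), with -1.63 ± 0.25 in refed fish.

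Of the 5 genes called in both feeding states with opposite signs, 4 were lower in starved and higher in refed Pachón cavefish, triap1 among them, and 1 was the reverse.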
